A study of Mus musculus with 6 samples.

Results

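The desert hedgehog pathway was examined in RNA-seq of whole mouse testes at postnatal day 12 (P12) through 8 genes, the ligand gene *Dhh*, the receptor gene *Ptch1*, the signal transducer gene *Smo*, the transcription factor genes *Gli1*, *Gli2* and *Gli3*, and the inhibitor genes *Hhip* and *Sufu*. The members were chosen by name, and all 8 were found among the 54232 genes of the deposited count table. Every one of the 8 passed the filter on low counts, with 850 to 13512 counts in a library. Testes came from mice on a B6D2F1 background, with 3 libraries of the genotype *Dis3l2* WT (control) and 3 of the genotype *Dis3l2* KO, called KO-labelled here. In the study, the KO group is a conditional knockout with a floxed and a deleted *Dis3l2* allele and *Stra8-Cre*, which acts in a part of the spermatogonia and in germ cells up to the preleptotene stage, and the controls are littermates whose alleles the labels give only as WT. The Cre driver is one of germ cells and not of Sertoli, Leydig or other somatic cells, in which the hedgehog genes are mainly known to act. The deleted allele of that genotype is not tied to the Cre driver, so somatic cells of the KO group may carry it too.

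Desert hedgehog is made by Sertoli cells and signals to the cells around the seminiferous tubules and between them. Without ligand, the receptor PTCH1 holds back SMO, and the full-length GLI proteins are kept in check by SUFU and cut into repressors, mostly from GLI3. With ligand bound to PTCH1, SMO enters the primary cilium and GLI2 and GLI3 turn into activators, which induce *Gli1*, *Ptch1* and *Hhip*, so that these 3 genes are widely used as readouts of the pathway. In the testis the pathway is known for the differentiation of Leydig cells and of peritubular myoid cells.

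*Dis3l2* itself had 23.0 to 25.8 CPM (counts scaled to library size with TMM factors) in the control and 25.4 to 31.6 CPM in the KO-labelled libraries, with a log2 fold change of 0.22 that did not pass the test (edgeR's quasi-likelihood test, adjusted p = 0.136). *Dis3*, a homolog, fell by 1.13 on the log2 scale (adjusted p = 2.7e-07, same test), and the study's design text names *Dis3* where the labels name *Dis3l2*. The paper reports less *Dis3l2* RNA by RT-qPCR and less DIS3L2 protein by immunoblot in P12 testes of its knockout. By in situ hybridization it found no *Dis3l2* in premeiotic germ cells and spermatocytes of that group. It also describes *Dis3l2* transcripts in Sertoli and Leydig cells, which counts of whole testes include. Why the counts differ from those measures was not tested. The groups are given here by their labels. Library totals ran from 33325483 to 44956193 counts, and the marker genes of Sertoli, Leydig, peritubular, stromal and germ cells were all read in these testes, with 0 of the markers of any of the 9 lists at 0 in all libraries.

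Sequences upstream of 7 of the 8 genes are listed by RefSeq (GRCm38.p6), and 2 of them are shown because *Dhh* encodes the ligand and because the *Gli2* window was the only one with the core of a GLI site. Each run covers the 250 bases before the transcript start, 5′ to 3′ on the strand of the gene, at chr15:98898541-98898790 for *Dhh* and chr1:119053620-119053869 for *Gli2*, both on the minus strand. Capitals mark matches to the searched motifs on either strand.

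Dhh: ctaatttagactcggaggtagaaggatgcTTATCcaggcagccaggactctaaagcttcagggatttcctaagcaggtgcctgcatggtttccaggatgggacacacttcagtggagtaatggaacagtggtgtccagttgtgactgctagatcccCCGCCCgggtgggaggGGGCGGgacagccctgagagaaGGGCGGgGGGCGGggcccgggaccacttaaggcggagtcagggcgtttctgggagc

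Gli2: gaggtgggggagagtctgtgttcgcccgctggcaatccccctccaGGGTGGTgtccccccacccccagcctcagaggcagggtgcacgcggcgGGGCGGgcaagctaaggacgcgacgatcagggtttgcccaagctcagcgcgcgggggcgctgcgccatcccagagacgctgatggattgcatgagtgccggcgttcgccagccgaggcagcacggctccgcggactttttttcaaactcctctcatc

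The full GLI site GACCACCCA was found in 0 of the 7 windows, beside 0.225% of the 32851 windows of all genes. Its core ACCACCC, which lies within the full site, matched 1 time, as its reverse complement in the *Gli2* run at -205, and 3.92% of all windows hold it. The GC box GGGCGG matched 4 times in the *Dhh* window, at -94, -78, -56 and -49, and was present in 32.7% of all windows. A GATA core GATAA lay at -221 of *Dhh*, as its reverse complement in the run (22.6% of all windows). Neither the SOX core ACAAT (27.7%) nor the NR5A1 site AAGGTCA (4.08%) was found in the *Dhh* window. These matches describe the letters in the windows only. The *Dhh* window held 9 CpG pairs and that of *Ptch1* 41, where the median of all windows was 6.

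Of the 8 genes, 5 passed the test between the groups, with *Dhh*, *Smo* and *Ptch1* higher and *Gli3* and *Gli2* lower in the KO-labelled libraries. *Gli1*, *Hhip* and *Sufu* did not pass. Over all 20327 genes tested, 32.7% passed, 16.2% as higher and 16.5% as lower, so that the members' share of 62.5% stands on 5 genes against a large background. For the same 5 genes the ranges of control and KO-labelled libraries were apart, as was so for 45.5% of all genes tested (21.7% higher, 23.8% lower). DESeq2 called the same 5 members, beside 34.3% of all genes (17.7% higher, 16.6% lower). The median log2 fold change was 0.20 over the 8 genes and -0.02 over all genes. All tests are edgeR's quasi-likelihood test on raw counts with TMM, adjusted over all genes by Benjamini-Hochberg, and an adjusted p under 0.05 counts as passed.

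**Figure D1:**
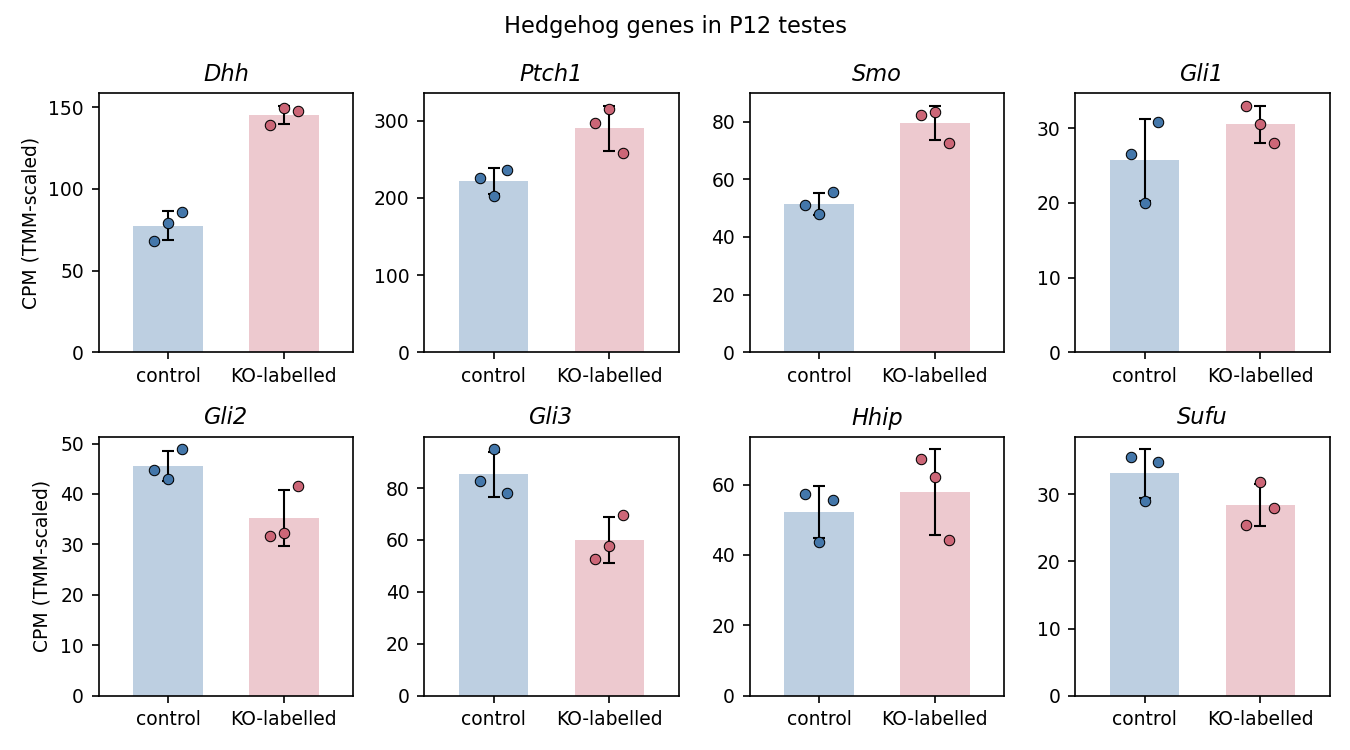
CPM scaled by TMM (vertical axis, from 0) of the 8 hedgehog genes by group, where each point is 1 library, the bar its group's mean and the whisker the SD (n = 3). For *Dhh* all KO-labelled libraries lie at 139 CPM or more and all control libraries at 85.5 CPM or less, while the points of *Gli1*, *Hhip* and *Sufu* overlap.

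*Dhh* encodes the hedgehog ligand of the testis (ENSMUSG00000023000.5, chromosome 15, 98891152 to 98898540 on GRCm38, minus strand). It had 67.8, 79.0 and 85.5 CPM in the control and 139, 149 and 148 CPM in the libraries labelled KO. Each KO-labelled library thus stood well above each control library. The log2 fold change was 0.91 (SE 0.09, 95% interval 0.71 to 1.10, adjusted p = 4.92e-06), a 1.88-fold rise. A stretch of 546 of its 4399 exon bases also belongs to *Rhebl1* on the same strand, and reads there were not counted.

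Sertoli cell markers rose in the same libraries. Of 17 such markers, 15 were higher and 0 lower, 88.2% beside 32.7% of all genes. Their summed levels were 8946 to 9581 CPM in the control and 14440 to 15064 CPM in the KO-labelled libraries. The log2 fold change of *Dhh* was smaller than that of 4 markers (*Amh*, *Inha*, *Inhbb* and *Kitl*) and larger than that of the other 13. Per 1000 CPM of Sertoli markers, *Dhh* had 7.35, 8.25 and 9.56 CPM in the control and 9.23, 9.95 and 10.2 CPM in the libraries labelled KO, so that the groups overlapped on this ratio (exact permutation test, two-sided p = 0.2, where 3 libraries against 3 allow no less than 0.1). With the libraries scaled to these markers, *Dhh* did not pass (log2 fold change 0.22, adjusted p = 0.0543 from edgeR, 95% interval 0.02 to 0.43). Both results use a sum, in which *Clu* and *Aard* weighed most, at means of 3572 and 1706 CPM in the control. Their log2 fold changes were 0.73 and 0.60, beside a median of 0.67 over the 17 markers. In bulk RNA of a testis, more Sertoli cells among the cells sampled and more RNA of a gene per Sertoli cell cannot be told apart, and the same holds for fewer cells and less RNA in the results that follow.

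*Ptch1* encodes the receptor of hedgehog ligands and is itself a target of the pathway (ENSMUSG00000021466.12, chromosome 13, 63508328 to 63573598, minus strand). It had 227, 203 and 237 CPM in the control and 298, 315 and 259 CPM in the libraries labelled KO. The ranges did not overlap, and the nearest libraries were control replicate 3 and KO-labelled replicate 3. The log2 fold change was 0.39 (SE 0.09, 95% interval 0.19 to 0.58, adjusted p = 0.00415), less than that of *Dhh*.

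*Smo* encodes the membrane protein that passes the signal on (ENSMUSG00000001761.7, chromosome 6, 29735503 to 29761365, plus strand). Its levels were 51.2, 47.8 and 55.5 CPM in the control and 82.5, 83.5 and 72.7 CPM in the libraries labelled KO. All KO-labelled libraries stood above all control libraries, and the log2 fold change was 0.63 (SE 0.09, 95% interval 0.43 to 0.82, adjusted p = 1.06e-04). The ratio of *Smo* to *Ptch1*, both per kb of exon, was 0.570, 0.594 and 0.591 in the control and 0.700, 0.668 and 0.710 in the KO-labelled libraries. It was higher in every KO-labelled library than in any control, and as a ratio within a library it does not depend on scaling.

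*Gli3* encodes the GLI factor that is the main repressor when ligand is absent (ENSMUSG00000021318.15, chromosome 13, 15463235 to 15730026, plus strand). It had 82.9, 94.9 and 78.0 CPM in the control and 52.6, 57.6 and 69.7 CPM in the libraries labelled KO. The log2 fold change was -0.51 (SE 0.11, 95% interval -0.74 to -0.28, adjusted p = 0.00228). It was the only member that kept its direction and its side of the threshold under all 16 alternatives tried. *Gli2*, the main activator of the family (ENSMUSG00000048402.14, chromosome 1, 118834132 to 119053619, minus strand), had 44.8, 42.9 and 48.9 CPM in the control and 31.6, 32.3 and 41.5 CPM in those labelled KO. The change on the log2 scale was -0.37 (SE 0.11, 95% interval -0.61 to -0.13, adjusted p = 0.0190). The groups came close to each other, at 41.5 and 42.9 CPM, and the call of *Gli2* was lost on leaving out control replicate 3 (adjusted p = 0.0764), or replicate 1 (0.0770) or replicate 2 (0.0998) of the KO-labelled group.

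*Gli1*, a GLI activator that is induced by the pathway (ENSMUSG00000025407.7, chromosome 10, 127329882 to 127341974, minus strand), did not follow *Gli2* and *Gli3*. It had 26.5, 20.0 and 30.8 CPM in the control and 33.001, 30.6 and 28.1 CPM in the libraries labelled KO, with 1 control library, replicate 3, inside the range of the KO-labelled ones. The log2 fold change was 0.24 (SE 0.14, adjusted p = 0.193), and its 95% interval of -0.05 to 0.54 leaves room for a rise like that of *Ptch1*. Without control replicate 3 it passed (0.40, adjusted p = 0.0427). In each library, *Gli1* per kb was set against the 2 other factors. The ratio of *Gli1* to *Gli3* was 0.615, 0.404 and 0.759 in the control and 1.21, 1.02 and 0.774 in the KO-labelled libraries, so the groups did not overlap but stood close at 0.759 and 0.774. The ratio of *Gli1* to *Gli2* was 0.640 to 0.868 in the control and 0.930 to 1.44 in the KO-labelled libraries.

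*Hhip* encodes a surface protein that binds and traps hedgehog ligands and is a target of the pathway (ENSMUSG00000064325.4, chromosome 8, 79965851 to 80058006, minus strand). It had 57.3, 43.7 and 55.6 CPM in the control and 67.4, 62.1 and 44.2 CPM in those labelled KO, which differed by 0.15 on the log2 scale (SE 0.14, adjusted p = 0.449, 95% interval -0.15 to 0.45). KO-labelled replicate 3 lay within the control range, and without it *Hhip* passed (0.32, adjusted p = 0.0435). *Sufu*, which encodes the protein that binds GLI factors in the cytoplasm (ENSMUSG00000025231.16, chromosome 19, 46396896 to 46488804, plus strand), had 35.6, 29.0 and 34.8 CPM in the control and 25.5, 31.8 and 28.0 CPM in the libraries labelled KO. The groups overlapped, and the log2 fold change was -0.22 (SE 0.11, adjusted p = 0.159, 95% interval -0.46 to 0.02).

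The ratios of the 3 readout genes to each other overlapped between the groups. Per kb, *Gli1* over *Ptch1* was 0.280 to 0.370 in the control and 0.276 to 0.315 in the KO-labelled libraries. *Hhip* over *Gli1* was 0.992 to 1.20 in the control and 0.867 to 1.12 in the KO-labelled libraries, and *Hhip* over *Ptch1* was 0.336 to 0.395 and 0.267 to 0.354. For this last ratio, KO-labelled replicates 2 (0.308) and 3 (0.267) lay below every control library. *Dhh* over *Ptch1* had 0.965 to 1.25 in the control and 1.51 to 1.84 in the KO-labelled libraries, and *Dhh* over *Gli3* had 1.78 to 2.39 and 4.62 to 5.77, both without overlap. *Sufu* over *Smo* was 0.491 to 0.563 in the control and 0.250 to 0.312 in the KO-labelled libraries. These ratios are descriptions of members within the same libraries and carry no test.

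**Figure D2:**
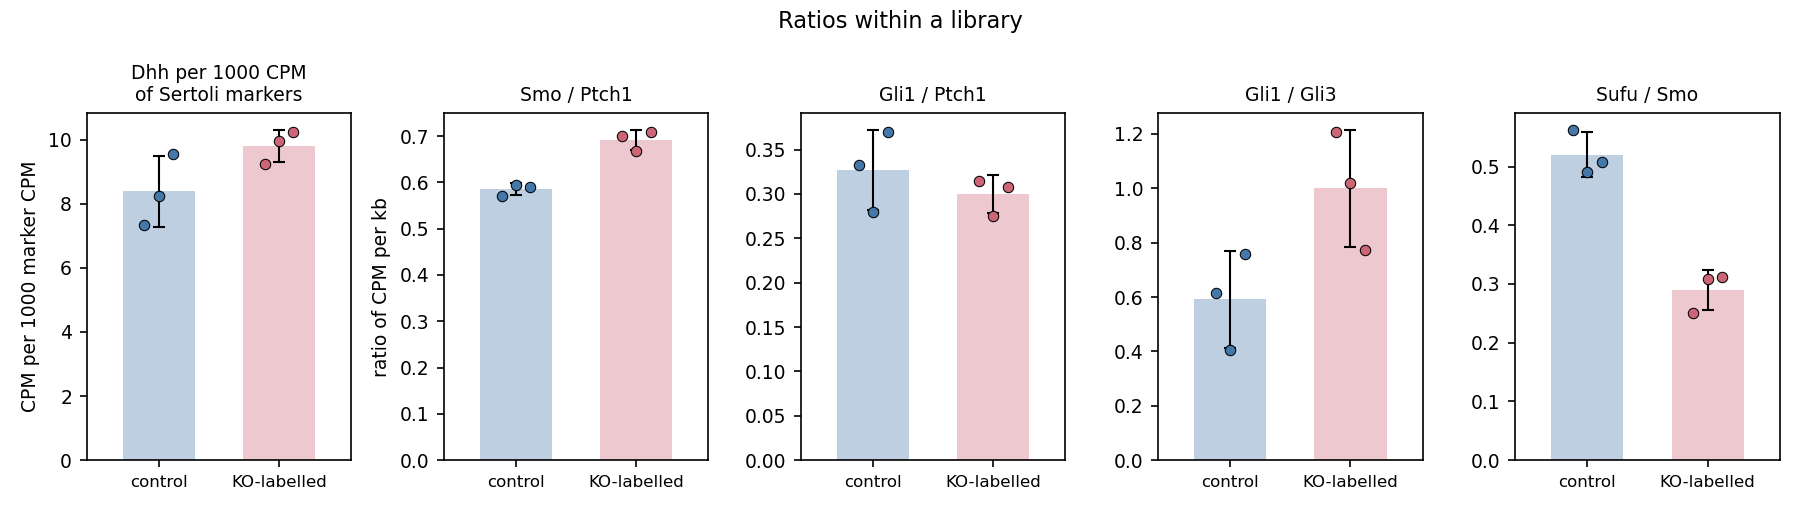
*Dhh* per 1000 CPM of Sertoli markers (left) and ratios of CPM per kb between members (other panels) by group, where each point is 1 library, the bar its group's mean and the whisker the SD (n = 3). *Smo* over *Ptch1* and *Sufu* over *Smo* separate the groups (0.594 against 0.668 and 0.491 against 0.312 at the nearest libraries), whereas *Gli1* over *Ptch1* overlaps.

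Per kb of exon, *Dhh* and *Ptch1* had the highest levels of the 8 genes. In the control libraries the mean level was 17.6 ± 2.04 CPM per kb (SD, n = 3) for *Dhh* and 15.7 ± 1.22 for *Ptch1*, and their ranges overlapped. The exon length of *Dhh* includes the 546 bases shared with *Rhebl1*, where reads were not counted. Its level per kb is thus on the low side, and the overlap with *Ptch1* rests on this length. *Smo* at 9.16 and *Gli3* at 8.89 came next and overlapped with each other, and neither reached down to *Gli2* at 6.63 ± 0.441. *Gli2*, *Hhip* (5.75), *Gli1* (5.16) and *Sufu* (4.77) followed, each overlapping with its neighbour in that order. In the KO-labelled libraries *Dhh* (33.04 ± 1.25), *Ptch1* (20.5 ± 2.05) and *Smo* (14.2 ± 1.06) stood apart from each other and from the rest. *Hhip* (6.38), *Gli3* (6.25), *Gli1* (6.12) and *Gli2* (5.12) came next with overlapping neighbours, and *Sufu* (4.09 ± 0.455) lay below the range of *Gli2*. *Gli3* thus moved from level with *Smo* to level with *Hhip* and *Gli1*.

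The balance of rises and falls depended on what the libraries were scaled to. Germ cell markers moved with the groups, and not in 1 direction. All 12 markers of meiosis fell, with sums of 1201 to 1436 CPM in the control and 289 to 386 CPM in the KO-labelled libraries. Of 7 markers of differentiating spermatogonia 5 were lower and 0 higher, 71.4% beside 32.7% of all genes (685 to 728 and 314 to 384 CPM). Of 10 markers of undifferentiated spermatogonia 5 were higher and 0 lower (280 to 293 and 313 to 398 CPM). When somatic markers (Sertoli, Leydig, peritubular, stromal, endothelial and macrophage) set the library size, 1 member was higher and 3 were lower, beside 46.1% of all genes called, 1.42% higher and 44.7% lower. *Dhh* remained higher there (0.44, adjusted p = 0.00824 from edgeR), and *Gli2* (-0.84), *Gli3* (-0.96) and *Sufu* (-0.69) were lower, while *Smo* (0.15) and *Ptch1* (-0.09) did not pass. Scaling to the Leydig, peritubular and stromal markers, the cells that receive the signal, left *Dhh* higher (0.70, adjusted p = 0.00512) and *Gli3* (-0.70) and *Gli2* (-0.58) lower, beside 18.1% of all genes called, 1.96% higher and 16.2% lower. There *Smo* had 0.40 (adjusted p = 0.164) and *Ptch1* 0.16 (adjusted p = 0.632). This factor is a sum of counts, so the stromal list weighed most in it. In the control the stromal sum was 5340 to 6774 CPM, beside 2616 to 2809 CPM for peritubular and 842 to 968 CPM for Leydig markers. In the somatic factor, also a sum, the Sertoli list weighed most, with 8946 to 9581 CPM in the control. Scaling to the Sertoli markers gave 0 higher and 6 lower members, beside 65.6% of all genes called, 0.684% higher and 64.9% lower.

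The scalings moved all genes together. The median log2 fold change of all genes was -0.02 with TMM, -0.24 with interstitial markers, -0.49 with somatic markers and -0.70 with Sertoli markers. Relative to that median, *Dhh* stood at 0.93, 0.94, 0.93 and 0.93 in this order, *Smo* at 0.65, 0.64, 0.64 and 0.65, *Ptch1* at 0.41, 0.40, 0.40 and 0.41, and *Gli3* at -0.49, -0.46, -0.47 and -0.48. The order of the 8 genes was therefore the same in each case, while the position of 0 and the errors changed. The SE of *Smo*, for example, was 0.09 with TMM and 0.20 with interstitial markers.

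**Figure D3:**
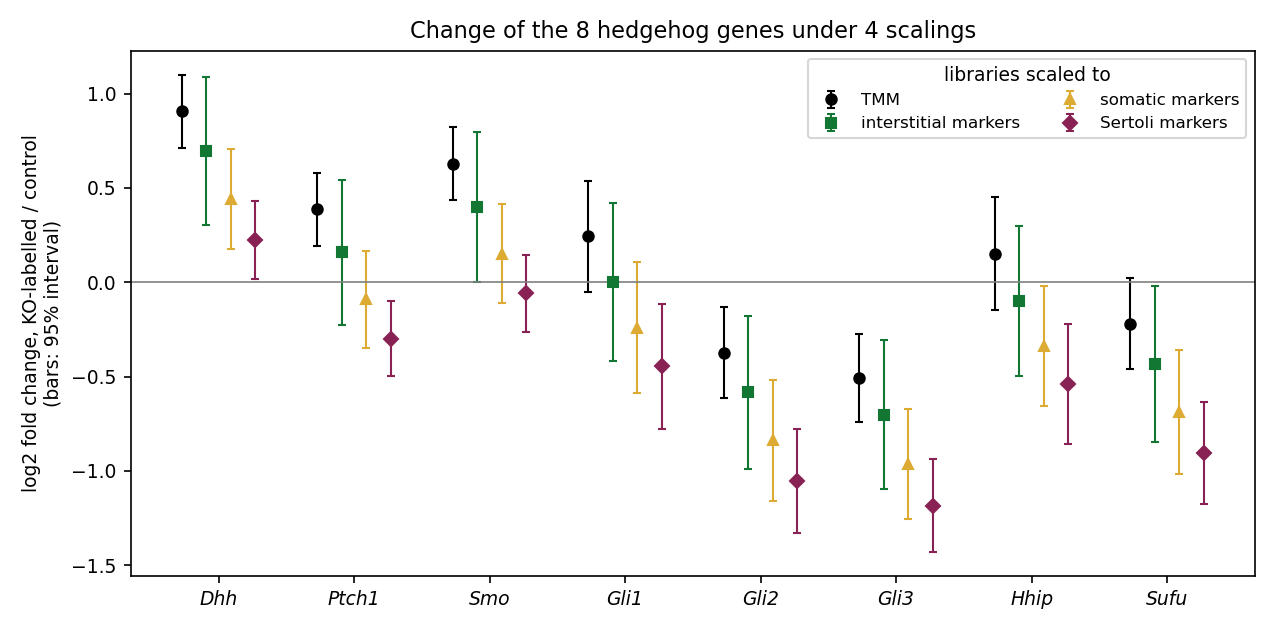
Log2 fold change of the 8 genes between KO-labelled and control libraries (vertical axis) with 95% intervals of the quasi-likelihood fit, for libraries scaled by TMM, interstitial, somatic or Sertoli markers. *Gli2* and *Gli3* lie below 0 under each scaling and *Dhh* above 0, whereas *Ptch1*, *Smo*, *Gli1* and *Hhip* change sides.

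The interstitial cell types did not move as one. Of 12 Leydig markers 8 were higher and 0 lower, 66.7% beside 32.7% of all genes. Their summed levels were 842 to 968 CPM in the control and 1264 to 1317 CPM in the KO-labelled libraries. Of 10 peritubular markers 0 were higher and 3 lower (2616 to 2809 and 2442 to 2762 CPM), and of 11 stromal markers 5 were higher and 0 lower (5340 to 6774 and 6126 to 9467 CPM). KO-labelled replicate 1 alone, with 9467 CPM, stood above the control range by a wide margin in the stromal sum. Per 1000 CPM of peritubular markers, *Smo* had 17.0 to 21.2 CPM in the control and 29.8 to 32.9 CPM in the KO-labelled libraries, and *Ptch1* 72.3 to 90.6 and 106 to 124 CPM. *Smo* was also higher per 1000 CPM of Leydig markers, by less (55.8 to 57.3 against 57.5 to 64.0 CPM), and overlapped per stromal markers (7.06 to 10.4 against 8.71 to 13.6 CPM). Per 1000 CPM of Leydig markers, *Ptch1* had 241 to 247 CPM in the control and 205 to 242 CPM in the KO-labelled libraries, which overlapped. *Gli3* was lower in all KO-labelled libraries per Leydig (80.5 to 113 against 39.9 to 55.1 CPM), peritubular (29.8 to 33.8 against 19.0 to 28.5) and stromal markers (14.0 to 15.3 against 5.55 to 10.99). *Hhip* was also lower in all KO-labelled libraries per 1000 CPM of Leydig markers (51.8 to 62.5 against 35.01 to 51.1 CPM). So were *Gli2* (48.8 to 50.98 against 24.01 to 32.9 CPM) and *Sufu* (34.4 to 38.8 against 19.4 to 24.3 CPM). Per peritubular and stromal markers, the groups overlapped for *Hhip*, *Gli2* and *Sufu*. For *Gli1* they overlapped with each of these lists. Each of the 22 ratios to marker sums was tested by an exact permutation test, where 3 libraries against 3 allow no two-sided p below 0.1. The lowest value after Benjamini-Hochberg adjustment over the 22 was 0.244. The part of the changes in germ cell markers in the levels of the members was not tested.

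The other genes of the pathway were taken from 5 lists with 66 genes, of which 64 were tested. Of these, 14 were higher and 17 lower, 48.4% beside 32.7% of all genes, with a median log2 fold change of 0.00043. Higher and lower genes were thus mixed, as among the 8 members. With scaling to somatic markers 1 was higher and 43 lower, beside 1.42% and 44.7% of all genes, and with scaling to interstitial markers 1 was higher and 16 lower, beside 1.96% and 16.2%. Without control replicate 1, 8 were higher in place of 14, while over all genes 2385 were higher in place of 3294.

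**Figure D4:**
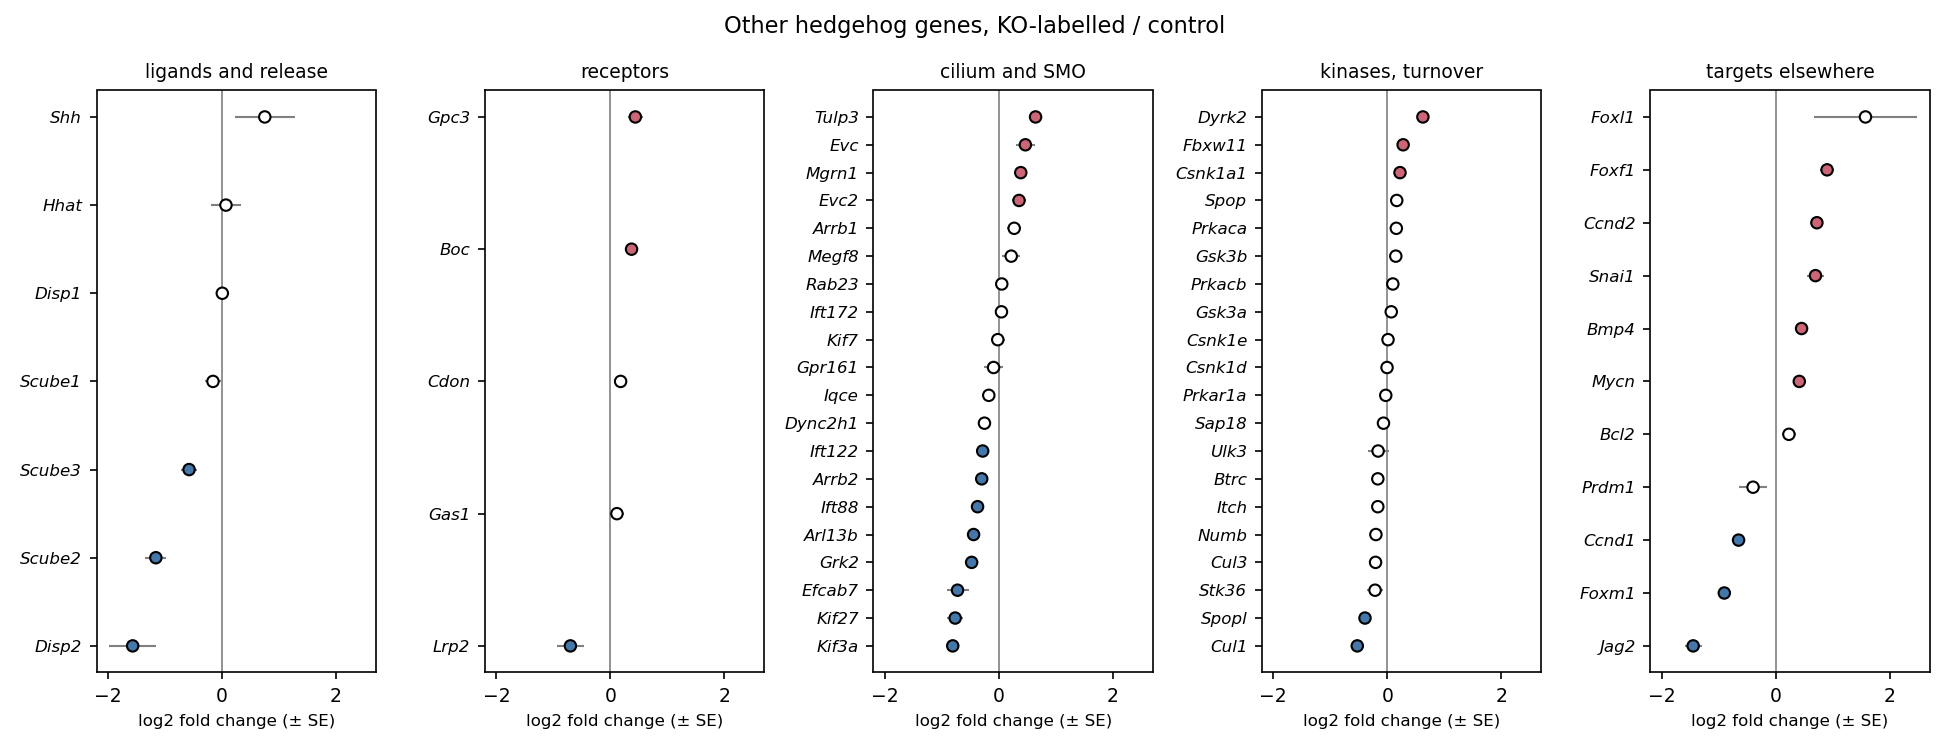
Log2 fold change (horizontal axis, bars for SE) of 63 other hedgehog genes in 5 lists, KO-labelled over control, with red for higher, blue for lower and white for genes that did not pass at an adjusted p of 0.05. Ligand release holds 3 lower and 0 higher genes, and the cilium list 8 lower and 4 higher. Over all genes, 16.2% were higher and 16.5% lower.

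Among ligands and the genes that release them, 3 were lower and 0 higher of 7 tested, 42.9% beside 32.7% of all genes. The other ligand genes had low levels. *Shh* had 0.575 ± 0.343 CPM in the control and 0.959 ± 0.379 CPM in the KO-labelled libraries (SD, n = 3 each), and *Ihh*, at 1 to 14 counts, was not tested. Per kb, *Shh* had 0.202 CPM in the control, where *Dhh* had 17.6. *Scube2*, for a secreted protein that takes hedgehog from the membrane of the sending cell, had 19.9, 25.3 and 18.4 CPM in the control and 11.3, 6.56 and 10.6 CPM in the libraries labelled KO. It fell by 1.16 on the log2 scale (adjusted p = 2.61e-04), and its relative *Scube3* fell by 0.58 (adjusted p = 0.00632). *Disp2*, a relative of the release transporter gene *Disp1*, fell by 1.57 (adjusted p = 0.00918) at low levels of 12 to 70 counts. *Disp1*, at 59.2 to 72.1 CPM over all libraries, differed by 0.01 on the log2 scale (adjusted p = 0.968), *Scube1* had -0.16 (adjusted p = 0.421), and *Hhat*, which encodes the enzyme that puts palmitate on the ligand, had 0.07 (adjusted p = 0.871).

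Among receptors and co-receptors, 2 were higher and 1 lower of 6. Over all genes 32.7% were called, 16.2% as higher and 16.5% as lower, so 3 calls of 6 rest on few genes against a large background. *Boc*, a co-receptor gene, had 42.8, 42.0 and 49.1 CPM in the control and 64.5, 59.9 and 48.7 CPM in the libraries labelled KO (log2 fold change 0.37, adjusted p = 0.0172), with KO-labelled replicate 3 inside the control range. *Gpc3*, for a glypican that competes for the ligand, rose by 0.44 (adjusted p = 0.0190), with 118.67 CPM in KO-labelled replicate 1 and 76.7 to 80.1 CPM in the 2 others. *Lrp2*, for a large endocytic receptor, fell by 0.70 (adjusted p = 0.0370) at 1.98 to 4.46 CPM. Each of these 3 calls was lost without some libraries. For *Boc* these were replicates 1 (adjusted p = 0.0783) and 2 (0.0513) of the control and 1 (0.0631) and 2 (0.0605) of the KO-labelled group. For *Gpc3* they were control replicates 1 (0.0570) and 3 (0.0624) and KO-labelled replicate 1 (0.0719). For *Lrp2* they were replicates 1 (0.188) and 3 (0.0658) of the control and 1 (0.0924) and 2 (0.0987) of the KO-labelled group. The co-receptor genes *Cdon* (0.18) and *Gas1* (0.11) did not pass. *Cdon* passed without KO-labelled replicate 3 (0.33, adjusted p = 0.00941).

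Genes of the primary cilium and of SMO control had 4 higher and 8 lower members of 20, 60.0% beside 32.7% of all genes. *Kif3a*, a subunit gene of the kinesin that builds cilia, had 150 ± 9.41 CPM in the control and 85.7 ± 6.57 CPM in the KO-labelled libraries (SD, n = 3 each), a fall of 0.81 on the log2 scale (SE 0.08, adjusted p = 6.94e-06 from edgeR). *Kif27*, a relative of the GLI regulator gene *Kif7*, fell by 0.77 (adjusted p = 6.32e-04). The higher genes were *Tulp3*, which brings receptors into the cilium (0.64, adjusted p = 9.6e-05), *Mgrn1*, a ubiquitin ligase gene that acts on SMO (0.38, adjusted p = 0.00442), and *Evc* (0.46, adjusted p = 0.0376) and *Evc2* (0.35, adjusted p = 0.0404), which encode partners of SMO at the base of the cilium. *Evc* passed only without KO-labelled replicate 3 among the 6 fits that leave out a library, with adjusted p up to 0.126, and *Evc2* only without control replicate 3 or KO-labelled replicate 3, with up to 0.140.

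Of 20 genes of the kinases and ubiquitin ligases that act on GLI proteins, 3 were higher and 2 lower, 25.0% beside 32.7% of all genes. The higher ones were *Dyrk2*, a kinase gene (0.62, adjusted p = 8.5e-05), *Fbxw11*, a gene for a substrate receptor of ubiquitin ligases (0.28, adjusted p = 0.0113), and *Csnk1a1*, the casein kinase gene whose product marks GLI proteins for processing (0.22, adjusted p = 0.0316). The lower ones were *Cul1*, a scaffold gene of ubiquitin ligases (-0.53, adjusted p = 3.46e-04), and *Spopl*, a substrate adaptor gene (-0.39, adjusted p = 0.00850). *Fbxw11* (0.0692) and *Spopl* (0.0572) did not pass without control replicate 1. *Csnk1a1* passed without control replicate 2 or KO-labelled replicate 1 and not in the 4 other fits with a library left out, with adjusted p up to 0.149.

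Of 11 tested genes known as hedgehog targets in other tissues, 5 were higher and 3 lower, 72.7% beside 32.7% of all genes. Their median log2 fold change was 0.41. *Foxf1*, a forkhead factor gene of mesenchyme that hedgehog induces in gut and lung, had 11.2 ± 0.499 CPM in the control and 20.9 ± 2.02 CPM in the KO-labelled libraries (SD, n = 3 each), a rise of 0.90 on the log2 scale (SE 0.12, adjusted p = 6.7e-05). It was the 1 gene of the 5 lists that stayed higher with scaling to somatic markers (0.44) and to interstitial markers (0.69). *Ccnd2*, a cyclin gene that Sertoli cells and spermatogonia express too, rose by 0.72 (adjusted p = 1.1e-05), and *Snai1* (0.70), *Bmp4* (0.45) and *Mycn* (0.41) rose as well. *Jag2*, a Notch ligand gene of germ cells, fell by 1.45 (adjusted p = 5.33e-06), and the cell division genes *Foxm1* (-0.90) and *Ccnd1* (-0.65) fell with it. As background, these genes answer to many signals besides hedgehog.

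For *Dhh*, *Gli1* and *Gli3*, the genes with the most similar profile were sought among 11360 protein-coding genes with a mean of at least 5 CPM, by Pearson's r of log2 CPM over the 6 libraries. The closest to *Dhh* were *Ilvbl* (r = 0.999), *Dnajc28* (0.998) and *Pcdhgb6* (0.997). The closest to *Gli1* were *B9d1* (0.984), *Romo1* (0.983) and *Agap2* (0.983), and those to *Gli3* were *Akap11* (0.998), *Kbtbd8* (0.997) and *Rundc3b* (0.997). With 6 libraries in 2 groups such values are common, and 779 genes had an r over 0.95 with *Dhh*, 357 with *Gli3* and 31 with *Gli1*. These correlations share the group difference and are descriptions.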

How the data were processed

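RNA-seq libraries of P12 testes (3 control, 3 KO-labelled) were made by the authors from RNA primed with random and poly(T) primers, with strand selection and targeted depletion of transcripts. The authors trimmed the single-end reads with cutadapt, aligned them with HISAT2 (GRCm38.p5 per the labels, mm10 per the paper) and deposited raw counts per gene from featureCounts 1.6.4, on the sense strand over GENCODE M18. The authors' settings leave out reads that map to several places or overlap several genes. 0 columns of library values were left unused. GENCODE M21 named 54079 of the 54232 identifiers.

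Counts were filtered with filterByExpr and tested with edgeR 4.0.16 (TMM, glmQLFit, glmQLFTest, R 4.3.3) over 20327 genes. SE is the log2 fold change divided by the square root of F. Exon length in the deposited table gave CPM per kb. Tests were checked on simulated data. Scaling to markers used their summed counts as library size. Other alternatives were DESeq2 1.42.0, limma-voom (limma 3.58.1), RLE and upper-quartile factors, 2 filters, a replicate block and each library left out. Permutation tests used scipy 1.17.1.

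The 8 members and all lists were chosen with earlier results of these data known. The text names the 8 members, all ligand and receptor genes of the lists, the 2 called genes with the smallest p per list and direction, and, chosen after their values were seen, all called genes where a list had 5 or fewer in a direction. 1 listed gene is counted but not reported here. The study calls the replicates biological, and no source used here ties each to its own animal, so p-values measure the spread between these libraries. Replicates differed by more than sampling noise (chi-square over its degrees of freedom at least 11.1).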

Additional observations from a re-analysis of the deposited data

How the results depend on the processing

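Of the 8 genes, *Gli3* kept its call under all 16 alternatives and *Dhh* under 15. DESeq2, limma-voom, the RLE and upper-quartile factors and both filters changed no call of a member. Scaled to Sertoli markers, 0 members were higher and 6 lower, and the log2 fold changes were 0.22 for *Dhh* (adjusted p = 0.0543), -0.30 for *Ptch1*, -0.058 for *Smo*, -0.45 for *Gli1*, -0.54 for *Hhip* and -0.90 for *Sufu*. Scaled to somatic markers, 1 member was higher, with -0.0889 for *Ptch1*, 0.15 for *Smo*, -0.24 for *Gli1*, -0.34 for *Hhip* and -0.69 for *Sufu*. Scaled to interstitial markers, 1 was higher, with 0.16 for *Ptch1*, 0.40 for *Smo*, -0.00027 for *Gli1* and -0.10 for *Hhip*. The marker factors shift all genes alike by construction. Over all genes, 289 were higher and 9089 lower with somatic, 139 and 13193 with Sertoli and 398 and 3291 with interstitial markers, beside 3294 and 3347 with TMM. For the calls lost on leaving out a library the cause was not tested.

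With 1 library left out, 3 to 4 members were higher and 1 to 2 lower. Log2 fold changes ran from 0.82 to 0.99 for *Dhh*, 0.33 to 0.47 for *Ptch1*, 0.60 to 0.70 for *Smo*, 0.13 to 0.40 for *Gli1*, -0.50 to -0.29 for *Gli2*, -0.62 to -0.38 for *Gli3*, 0.0384 to 0.32 for *Hhip* and -0.30 to -0.14 for *Sufu*. Among the other hedgehog genes, 8 to 14 were higher and 12 to 17 lower. Over all genes in these fits, 2385 to 3331 were higher and 2563 to 3338 lower of 21008 to 21642 tested.

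Over all genes, 0.684% were higher and 64.9% lower with Sertoli markers, 1.42% and 44.7% with somatic markers, and 1.96% higher with interstitial markers. Of the other hedgehog genes, 0 were higher and 53 lower with Sertoli markers, 1 and 43 with somatic markers, and 1 higher with interstitial markers. Several turned below 0. With Sertoli markers these were *Boc* (-0.32), *Gpc3* (-0.25), *Tulp3* (-0.0396), *Mgrn1* (-0.30), *Dyrk2* (-0.0562), *Fbxw11* (-0.40), *Hhat* (-0.61), *Disp1* (-0.67), *Cdon* (-0.51), *Gas1* (-0.57), *Evc* (-0.22), *Evc2* (-0.33), *Csnk1a1* (-0.46), *Mycn* (-0.27) and *Bmp4* (-0.23). With somatic markers they were *Boc* (-0.11), *Gpc3* (-0.0516), *Mgrn1* (-0.0871), *Fbxw11* (-0.19), *Hhat* (-0.40), *Disp1* (-0.45), *Cdon* (-0.30), *Gas1* (-0.36), *Evc* (-0.0136), *Evc2* (-0.12), *Csnk1a1* (-0.24), *Mycn* (-0.0515) and *Bmp4* (-0.0185). With interstitial markers they were *Hhat* (-0.14), *Disp1* (-0.20), *Cdon* (-0.0563) and *Gas1* (-0.12). *Disp1* also turned with at least 10 counts in every library (-0.0159). With 1 library left out, *Hhat* ran from -0.0409 to 0.23, *Disp1* from -0.0673 to 0.0763 and *Gas1* from -0.0409 to 0.26.

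Same-numbered libraries did not deviate together, with correlations of -0.0014, -0.0126 and 0.0139 over genes, and only share a number. With the replicate block, all members kept their call, with 0.91 for *Dhh* and -0.51 for *Gli3*, while *Lrp2* (-0.68, adjusted p = 0.0531) and *Evc2* (0.35, adjusted p = 0.0574) did not pass. With 3 libraries per group, the 95% intervals given for *Gli1*, *Hhip* and *Sufu* limit what could be seen.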
